A study of Saccharomyces cerevisiae with 6 samples.

Results

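The aryl-alcohol dehydrogenase (AAD) genes of the budding yeast Saccharomyces cerevisiae are described here: AAD3, AAD4, AAD6, AAD10, AAD14 and AAD15, 6 of the 4073 genes with named spots on the arrays. The members were chosen by name, with their heat ratios in both strains already known. Those ratios and the strain differences made from them are therefore given as a description, without p-values. Whether the fit over all genes called a member is stated only as part of that description.

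The study asked how yeast that lacks the histone deacetylase Rpd3 responds to heat. Of 6 Agilent arrays of 2 channels, 3 held the laboratory strain BY4741, called wild type, and 3 held an rpd3 deletion strain in the same BY4741 background. Each array compared a culture shifted to 39 °C for 20 minutes with a 25 °C control of its own strain. Cultures in YPD, a rich medium, were in mid-log phase, and the replicates were independent cultures per the labels. The control was labelled with Cy5 and the heated sample with Cy3 on every array, so dye and heat cannot be told apart within a strain, whereas any dye effect shared by the arrays drops out between strains. Both strains carry the auxotrophic deletions of BY4741, and the mutant is a single deletion genotype.

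All values are log2 ratios, read as heated over control, and a ratio of 1 stands for a doubling. Neither the log base nor the sign is stated in the sources used here. The sign was taken from the design text, which sets the response against the control. Read this way, the ratios of HSP104 and SSA4, chaperone genes that heat is known to induce, were positive on all 6 arrays, with wild-type means of 4.04 ± 0.34 and 5.33 ± 0.52 (SD, n = 3). With the sign turned, every rise given here would read as a fall. Each ratio is relative to the control of its own strain, so a strain difference may reflect the level at 25 °C, at 39 °C or at both.

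Aryl-alcohol dehydrogenases belong to the aldo-keto reductases, enzymes that use NADPH to reduce aldehydes. The yeast genes were named for their likeness to an enzyme of the white-rot fungus Phanerochaete chrysosporium that interconverts aromatic aldehydes and aromatic alcohols. The yeast proteins are very alike in sequence, and no clear growth defect is known for cells that lack them. AAD4 and AAD6 are known as genes that oxidants induce through the transcription factor Yap1, and several copies of the family are shortened or broken. Rpd3 removes acetyl groups from histones, mostly as part of repressing complexes at promoters.

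In the RefSeq annotation of assembly R64 all 6 genes lie near chromosome ends. AAD3 (YCR107W) is gene number 2 from the right end of chromosome III, and AAD15 (YOL165C) is number 2 from the left end of chromosome XV. AAD4 (YDL243C) is number 6 from the left end of chromosome IV. AAD10 (YJR155W) is number 6 from the right end of chromosome X. AAD14 (YNL331C) is number 7 from the left end of chromosome XIV, and AAD6 (YFL056C) is number 11 from the left end of chromosome VI. AAD6 is annotated as a pseudogene and the other 5 as protein-coding. AAD15 is the shortest of the annotated genes and AAD14 the longest. Each gene had 7 spots per array. Since the genes are alike and the probes' letters are not used here, how much a spot reads of a sister gene was not tested.

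Heat ratios of the family spanned a wide range in wild type, with AAD10 at the top and AAD3 at the bottom on all 3 wild-type arrays. By the fit over all genes, AAD4, AAD10 and AAD14 rose, AAD3 fell, and AAD6 and AAD15 did not pass the threshold. Over all 4073 genes, 29.7% rose and 36.3% fell in wild type, so 3 rises and 1 fall among 6 members are read as no property of the family. After centring of each array on the genes deleted in BY4741, 885 genes rose and 1816 fell, against 1210 and 1477 as deposited. The family's median was 0.37, against -0.05 over all genes.

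AAD10, which encodes a putative aryl-alcohol dehydrogenase, had wild-type ratios of 1.40, 1.28 and 1.40 (arrays 1 to 3, the order kept below) and mutant ratios of 1.33, 1.52 and 0.97. All 6 values were high, and the strains overlapped. Its mean was 1.36 ± 0.066 (SD, n = 3) in wild type, a 2.57-fold rise, and 1.27 ± 0.27 in the mutant, a 2.41-fold rise. These means stood at percentile 94.6 and 95.4 of all genes. The strain difference was -0.090 ± 0.15 (SE of the fit), and without mutant array 3 it was 0.059. Its size was below the SD of the mutant arrays but not below that of the wild-type arrays.

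AAD4 had ratios of 0.74, 0.68 and 0.47 in wild type and of -0.33, -0.15 and -0.39 in the mutant. Every wild-type array was positive and every mutant array negative. Wild-type arrays averaged 0.63 ± 0.14 (SD, n = 3; 1.55-fold) and mutant arrays -0.29 ± 0.13 (0.818-fold). The strain difference of -0.92 ± 0.12 (SE) was the lowest of the family and stood at percentile 5.23 of all genes. The fit called AAD4 higher after heat in wild type and lower after heat in the mutant. The fall in the mutant was not called without mutant array 1 (-0.27), without mutant array 3 (-0.24) or with arrays centred on genes deleted in BY4741 (-0.19), and was called in the 9 other settings of 12, while the strain difference was called in all 13 alternative settings, at -0.999 to -0.681.

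AAD6 had ratios of 0.33, 0.33 and -0.04 in wild type and of -0.54, -0.11 and -0.72 in the mutant. The strains did not overlap, though wild-type array 3 and mutant array 2 came close to each other. Wild-type arrays averaged 0.21 ± 0.21 and mutant arrays -0.46 ± 0.31, of which the fit called the fall in the mutant. The strain difference of -0.67 ± 0.18 (SE) was called, but not without wild-type array 1 (-0.60), wild-type array 2 (-0.60) or mutant array 1 (-0.62), nor after centring on the genes deleted in BY4741 (-0.43). The fall in the mutant was not called without mutant array 1 (-0.42) or mutant array 3 (-0.33).

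AAD14 had ratios of 0.67, 0.43 and 0.52 in wild type and of 0.04, 0.36 and 0.09 in the mutant. All 6 were positive, and the mutant arrays lay below the wild-type arrays, array 2 by a narrow margin. Wild-type arrays averaged 0.54 ± 0.12 (1.45-fold) and mutant arrays 0.16 ± 0.17 (1.12-fold), and the fit called only the rise in wild type. The strain difference of -0.38 ± 0.13 (SE) was called by a narrow margin. It was called in 4 of 13 alternative settings, and of the 6 settings that leave out an array only in that without mutant array 2 (-0.47). It ranged from -0.43 to -0.31 without any of the other 5 arrays.

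AAD3 had ratios of -0.37, -0.33 and -0.44 in wild type and of -0.58, -0.69 and -0.37 in the mutant. All 6 were negative, and the strains overlapped. Means were -0.38 ± 0.054 for wild type (0.769-fold) and -0.55 ± 0.16 for the mutant (0.684-fold), and both falls were called in all 12 alternative settings. The strain difference was -0.17 ± 0.12 (SE) and was not called.

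AAD15 had ratios of 0.16, 0.14 and 0.11 in wild type and of -0.11, -0.13 and -0.13 in the mutant. The strains did not overlap, and the spread within each strain was the smallest of the family, with means of 0.14 ± 0.023 and -0.12 ± 0.014. Neither mean was called. The strain difference was -0.26 ± 0.091 (SE) and was not called either, except after genes with widely spread spots were left out, when 4 members were called.

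**Figure D1:**
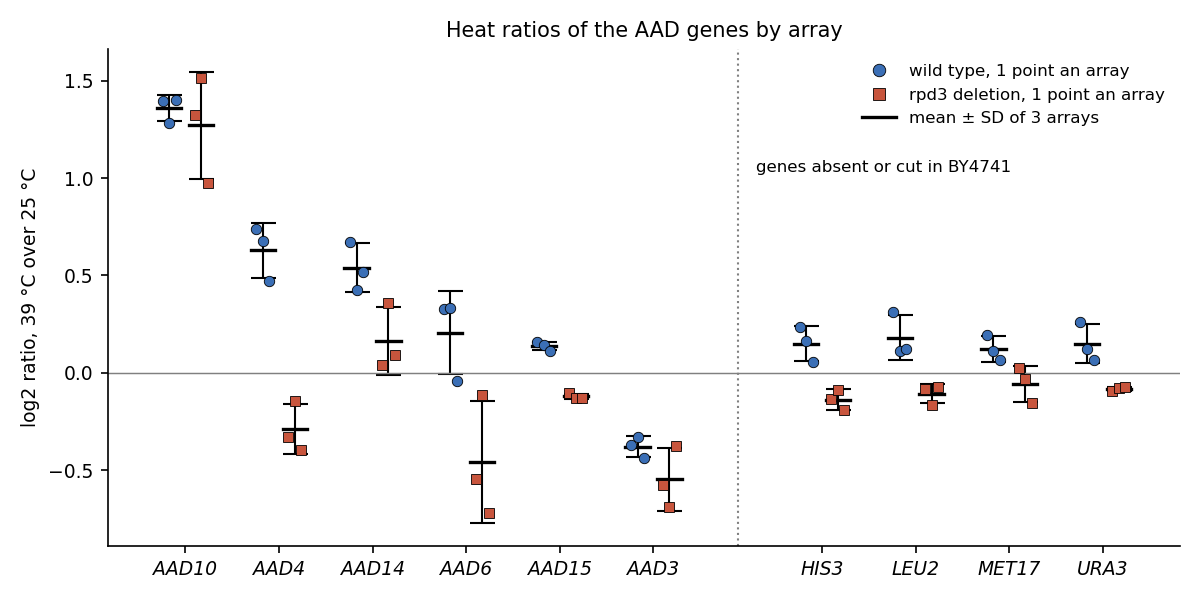
Heat log2 ratio (39 °C over 25 °C) of the 6 AAD genes and of 4 genes that are absent or cut in BY4741, 1 point per array, with blue circles for wild type, red squares for the rpd3 deletion, and bars for the mean ± SD of 3 arrays. AAD10 lies between 1.28 and 1.40 in wild type and between 0.97 and 1.52 in the mutant, AAD4 changes sign between the strains, and AAD15 lies where the 4 deleted genes lie.

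The small values need a zero point. HIS3, LEU2, MET17 and URA3 are absent or cut in BY4741 and were taken as spots with little or no transcript. In wild type their median was 0.25, 0.12 and 0.064 on arrays 1 to 3, while in the mutant it was -0.087, -0.083 and -0.12. Spots of these genes thus differed between strains by -0.24 in the mean, and each of the 4 genes by -0.29 to -0.18. The fit called none of these 4 genes in any of the 3 contrasts.

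AAD15 tracked these deleted genes closely. Its ratio less their median was -0.09, 0.02 and 0.05 for wild type, while the mutant gave -0.02, -0.05 and -0.01. The root mean square distance over the 6 arrays was 0.047 for AAD15, against 0.33 for AAD6, 0.35 for AAD14, 0.38 for AAD4, 0.50 for AAD3 and 1.30 for AAD10. The ratios of AAD15 were thus not distinguishable from those of these absent or cut genes. A transcribed gene that heat leaves unchanged could also lie there, and 17 of 4068 other genes lay as close to the deleted genes. Its strain difference relative to the deleted genes was -0.021.

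The other members kept part of their pattern relative to the deleted genes. AAD4 was then at 0.49 ± 0.077 (SD, n = 3) for wild type and -0.19 ± 0.12 in the mutant, with no overlap of the strains and a strain difference of -0.68, which the fit still called. AAD6 was at 0.064 ± 0.16 and -0.36 ± 0.30, a difference of -0.43 that was not called, with overlapping strains. AAD14 was at 0.40 ± 0.078 and 0.26 ± 0.17, a difference of -0.14 with overlapping strains. AAD10 and AAD3 changed the sign of their strain differences, to 0.15 and 0.071. The family's median strain difference moved from -0.32 to -0.079. Whether a shift seen in spots with little or no transcript applies to brighter spots was not tested. The median of all genes was -0.074 to -0.027 on the wild-type arrays and -0.0084 to 0.022 on the mutant arrays.

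**Figure D2:**
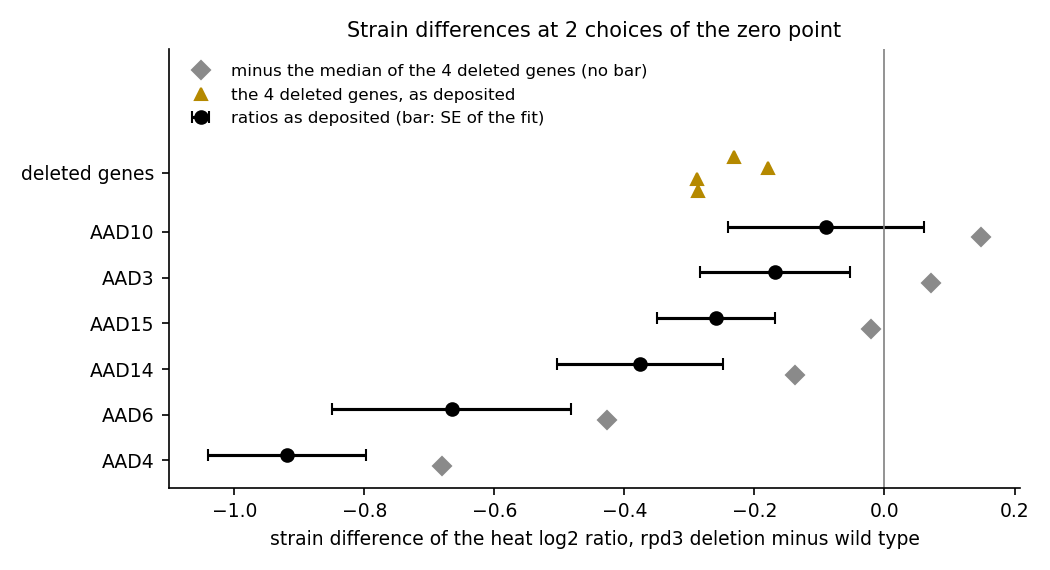
Strain difference of the heat log2 ratio (rpd3 deletion minus wild type) for the 6 AAD genes, as deposited (black circles, bars: SE of the fit) and after the median of 4 deleted genes was taken off each array (grey diamonds), with the 4 deleted genes as deposited (triangles, spread vertically for legibility). All 6 genes lie below 0 as deposited, and AAD4 (-0.92), AAD6 (-0.67) and AAD14 (-0.38) lie below the deleted genes (-0.29 to -0.18).

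In the mutant, by the fit as deposited, AAD10 rose, AAD3, AAD4 and AAD6 fell, and AAD14 and AAD15 were not called. The background in this strain was 33.7% of genes rising and 31.9% falling. The family's median was -0.21, against 0.00 over all genes. For the strain difference, AAD4, AAD6 and AAD14 were called lower in the mutant and none higher, where 21.0% of all genes were called lower and 24.8% higher. All 6 strain differences were negative. As deposited, 1012 genes were called higher and 854 lower, whereas 1564 were higher and 398 lower once each array was centred on the deleted genes. The arrays of the strains did not overlap for 4 of the 6 members, AAD4, AAD6, AAD14 and AAD15, with the mutant lower each time, as for 27.3% of all genes. A pattern of 3 positive wild-type arrays and 3 negative mutant arrays, seen in AAD4 and AAD15, was present in 6.06% of all genes. The rule used these contrasts, so nothing is read from the counts.

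The order of the members differed between the strains. In wild type it ran AAD10, AAD4, AAD14, AAD6, AAD15 and AAD3. Within arrays AAD4 exceeded AAD14 by 0.090 ± 0.15 (SD, n = 3) and AAD6 exceeded AAD15 by 0.069 ± 0.19, so neither pair of neighbours in this order differed beyond its spread. In the mutant the order ran AAD10, AAD14, AAD15, AAD4, AAD6 and AAD3. There AAD4 exceeded AAD6 by 0.17 ± 0.18, and AAD3 differed from AAD6 by -0.088 ± 0.46, again within the spread. AAD4 stood at -0.45 ± 0.076 relative to AAD14 in the mutant, on the other side of 0 from its place in wild type. AAD10 exceeded AAD14, the next member in the mutant, by 0.82 ± 0.086 in wild type and, in the mutant, by 1.11 ± 0.21.

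The spread over the 7 spots of a gene differed among the members. The SD over the spots of AAD4 was 0.030 to 0.066, and that of AAD6 was 0.026 to 0.059, while the median over all genes was 0.035 to 0.065 on the 6 arrays. AAD3, with an SD of up to 0.13, AAD10, of up to 0.093, and AAD15, of up to 0.22, exceeded the median over all genes on all 6 arrays. On mutant array 2 a single spot of AAD14 read 0.80 while its 6 others read 0.23 to 0.34. On the same array a single spot of AAD15 read -0.58 while its 6 others read -0.19 to 0.02. With the median over spots in place of the mean, the same 3 members, AAD4, AAD6 and AAD14, were called for the strain difference.

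**Figure D3:**
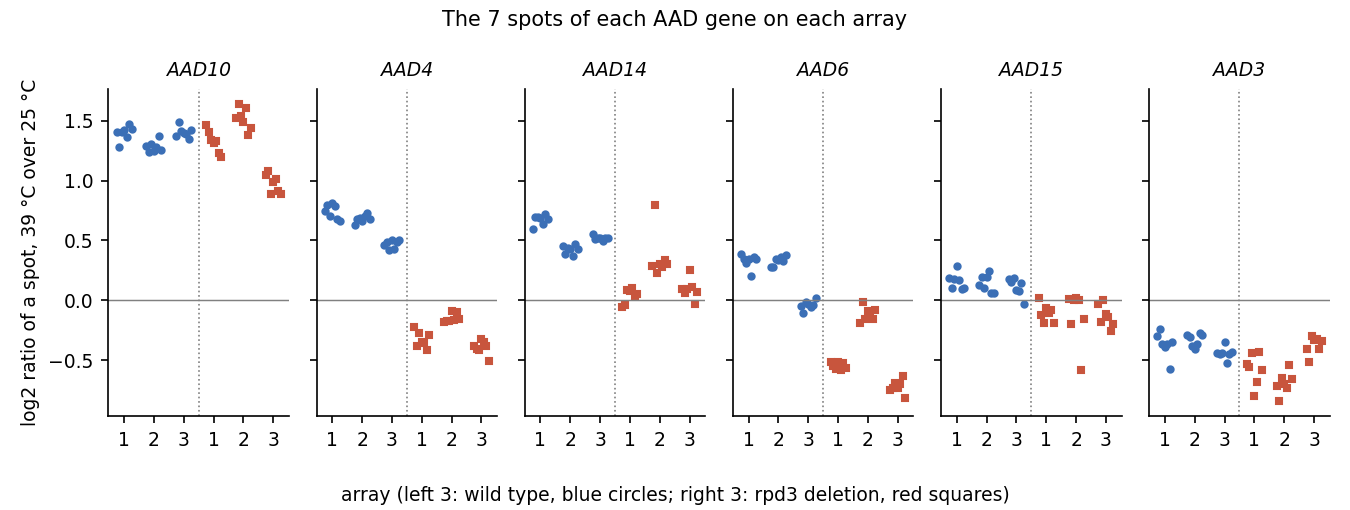
Log2 ratio (39 °C over 25 °C) of each of the 7 spots of each AAD gene on wild-type arrays 1 to 3 (blue circles) and mutant arrays 1 to 3 (red squares). The most distant spots are 1 AAD14 spot at 0.80 and 1 AAD15 spot at -0.58 on mutant array 2.

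Genes next to the members were compared because the family is near chromosome ends. For 4 of the 6 members, AAD4, AAD6, AAD10 and AAD14, the next annotated gene on 1 side belongs to the THI5 family of thiamine pyrimidine synthesis, THI13, THI5, THI11 and THI12 in that order. These THI genes are near-identical copies, so their spots may share signal. THI5 was at 0.90 ± 0.42 (SD, n = 3) for wild type and -0.36 ± 0.27 in the mutant, a strain difference of -1.25 ± 0.23 (SE, limma adjusted p = 0.00506). THI12 differed by -1.36 ± 0.23 (limma adjusted p = 0.00374), THI11 by -0.88 ± 0.16 (limma adjusted p = 0.00504) and THI13 by -0.36 ± 0.094 (limma adjusted p = 0.0194). The THI13 difference was not called without wild-type array 1, without mutant array 1, with the median over spots or after centring on the deleted genes.

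Member and neighbour differed unequally. AAD10 differed by -0.090 next to THI11 at -0.88, and AAD4 differed by -0.92 next to THI13 at -0.36. AAD6 differed by -0.67 next to THI5 at -1.25, and AAD14 by -0.38 next to THI12 at -1.36. In each of these pairs both differences were negative as deposited. AGP3, an amino acid permease gene on the other side of AAD6, was at 1.36 ± 0.14 in wild type and 0.39 ± 0.29 in the mutant, a difference of -0.97 ± 0.17 (SE, limma adjusted p = 0.00377). SNZ3 and SNZ2, vitamin B6 genes that lie 2 steps from AAD6 and AAD14, differed by -0.91 ± 0.28 (limma adjusted p = 0.0343) and -0.91 ± 0.27 (limma adjusted p = 0.0292). They are also near-identical copies, and their arrays overlapped between strains. Neither SNZ difference was called after centring on the deleted genes or without wild-type array 1 or 2 or mutant array 1 or 3. The hexose transporter genes HXT15 and HXT16 near AAD4 and AAD10 differed by -0.19 ± 0.12 (limma adjusted p = 0.231) and -0.13 ± 0.10 (limma adjusted p = 0.319), PGU1, a pectinase gene near AAD10, by -0.32 ± 0.16 (limma adjusted p = 0.128), and RDS1, beside AAD3, by -0.25 ± 0.097 (limma adjusted p = 0.0677), all uncalled. No measured gene lay within 2 steps of AAD15.

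AAD14 lies directly beside RPD3, the deleted gene. RPD3 had a ratio of 0.22 ± 0.034 (SD, n = 3) for wild type and -0.073 ± 0.040 in the mutant, close to the deleted genes in the mutant, where both channels lack its RNA. PEX6, a peroxisome biogenesis gene on the far side of RPD3, was at 0.071 ± 0.067 and -0.28 ± 0.044, a strain difference of -0.35 ± 0.096 (SE, limma adjusted p = 0.0229), which was not called in the same 5 settings as for the SNZ genes. For AAD14, an effect of the altered locus next door and an effect of the absence of Rpd3 cannot be told apart in this design.

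**Figure D4:**
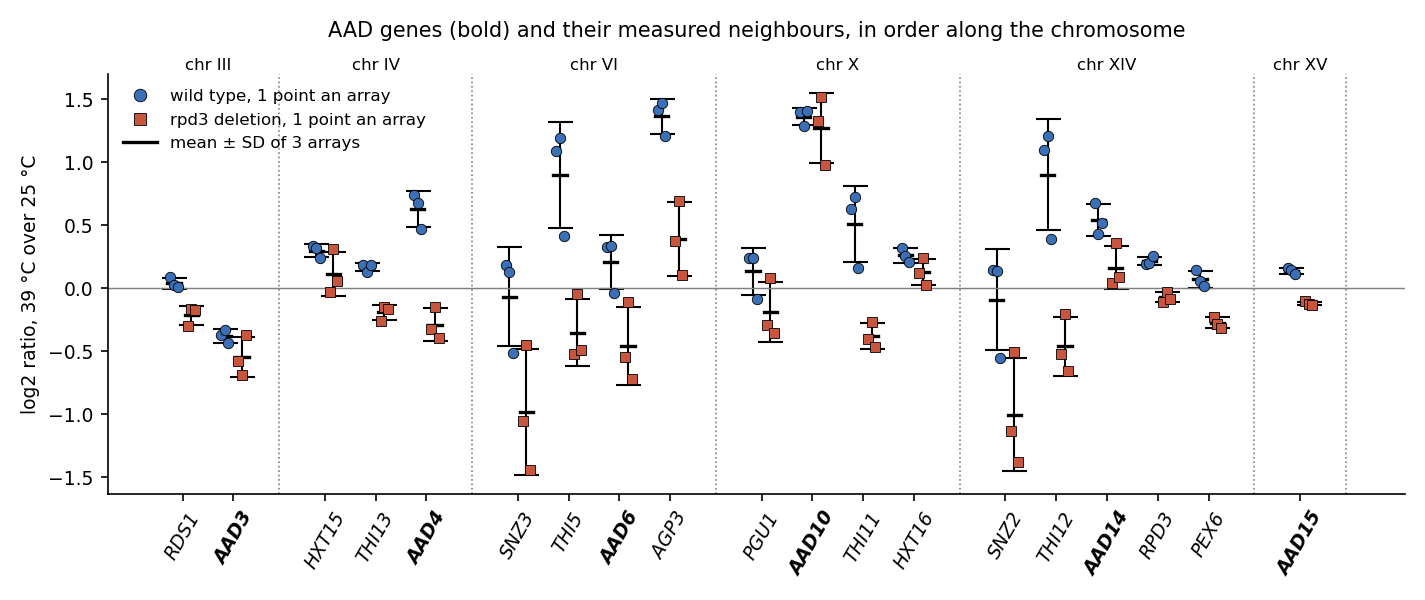
Heat log2 ratio (39 °C over 25 °C) of the AAD genes (bold) and of measured genes within 2 annotated steps, in order along each chromosome but not to scale, 1 point per array, with bars for the mean ± SD of 3 arrays. THI5, THI11 and THI12 lie above 0 in wild type and below 0 in the mutant on every array, while AAD10 beside THI11 is high in both strains.

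In the ratios as deposited, more genes near chromosome ends were called lower than higher in the mutant. Among the 15 annotated genes nearest each end, 254 genes other than AAD members were measured. The mitochondrial genome was not left out of this set, so some of the 254 may be mitochondrial genes. Their number was not counted. In wild type 42.1% of the 254 rose and 22.0% fell, with a median of 0.16, against 29.7% and 36.3% of all genes. In the mutant 28.0% rose and 33.5% fell, with a median of -0.059, against 33.7% and 31.9% of all genes. For the strain difference 90 of 254 (35.4%) were lower in the mutant and 35 (13.8%) higher, where 21.0% and 24.8% of all genes were. After centring on the deleted genes 59 of the 254 were lower and 57 higher, so the balance within this set depends on the zero point. Over all 4073 genes 398 were then lower and 1564 higher. Lower calls thus remained a larger share near the ends than over all genes, and higher calls a smaller share. As deposited, the median difference of the 254 was -0.22, against 0.02 over all genes and -0.24 for the median of the deleted genes. The deleted genes are only 4 and were not chosen for lying near an end. Whether these medians have a common source was not tested. How much weak spots contribute near an end was not tested.

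Of 7 other aldo-keto reductase genes listed, 4 had spots, and these 4 rose in wild type, where 29.7% of all genes rose. GCY1, a glycerol dehydrogenase gene, was at 3.16 ± 0.29 (SD, n = 3) for wild type and 3.24 ± 0.44 in the mutant. GRE3, an aldose reductase gene, was at 3.10 ± 0.33 and 3.39 ± 0.58. Neither differed between the strains by the fit (limma adjusted p = 0.798 and 0.442). ARA1, an arabinose dehydrogenase gene, was at 1.24 ± 0.16 and 0.55 ± 0.14, a strain difference of -0.69 ± 0.13 (SE, limma adjusted p = 0.00481). YPR1, a reductase gene, was at 0.48 ± 0.17 and 0.18 ± 0.19, with an uncalled difference of -0.30 ± 0.14 (limma adjusted p = 0.113).

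ARO10 and ARO9, which turn aromatic amino acids into aldehydes, rose in both strains. This Ehrlich pathway feeds the aldehydes that alcohol dehydrogenases reduce to fusel alcohols. ARO10, the phenylpyruvate decarboxylase gene, was at 5.07 ± 0.34 (SD, n = 3) for wild type and 3.59 ± 0.46 in the mutant, a difference of -1.48 ± 0.26 (SE, limma adjusted p = 0.00422). ARO9, the aromatic aminotransferase II gene, was at 4.40 ± 0.29 and 3.38 ± 0.58, a difference of -1.02 ± 0.29 (limma adjusted p = 0.0259). PDC6, a minor pyruvate decarboxylase gene, was at 2.37 ± 0.20 and 0.68 ± 0.61, a difference of -1.69 ± 0.29 (limma adjusted p = 0.00376). SFA1, a dehydrogenase gene for formaldehyde and long-chain alcohols, went the other way, at 0.16 ± 0.26 and 1.32 ± 0.15, a difference of 1.16 ± 0.16 (limma adjusted p = 0.00163). Of 16 measured genes in this list of the pathway and of alcohol dehydrogenases, 8 rose and 3 fell in wild type. Over all genes 29.7% rose and 36.3% fell there. In the mutant 9 of the 16 rose and 4 fell, against 33.7% and 31.9% of all genes. For the strain difference 2 of the 16 were higher and 5 lower in the mutant, with a median of -0.24. Over all genes 24.8% were higher and 21.0% lower. After centring on the deleted genes 4 of the 16 were higher and 2 lower. The 7 calls became 3 without wild-type array 1, 4 without wild-type array 2 or mutant array 1, and 11 without mutant array 2. The ARO9 difference was not called without wild-type array 1 or 3 or mutant array 1, or with that centring.

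Genes of Yap1 and of oxidative or drug defence moved in both directions. Of 22 measured genes 7 rose and 9 fell in wild type, 5 rose and 8 fell in the mutant, and 3 were higher and 3 lower in the mutant for the strain difference, with a median of -0.089. Over all genes 29.7% rose and 36.3% fell in wild type, and 33.7% rose and 31.9% fell in the mutant. For the strain difference 24.8% of all genes were higher and 21.0% lower. The counts for the difference became 6 higher and 3 lower after centring on the deleted genes, and 11 genes were called without mutant array 2. OYE3, an NADPH dehydrogenase gene of the old yellow enzyme family, had ratios of 1.03, 1.12 and 0.45 in wild type and of -0.82, -0.26 and -1.38 in the mutant. Its strain difference was -1.68 ± 0.30 (SE, limma adjusted p = 0.00435). ZWF1, the glucose-6-phosphate dehydrogenase gene that starts NADPH production, was at 1.24 ± 0.30 and -0.25 ± 0.37 (SD, n = 3), a difference of -1.48 ± 0.22 (SE, limma adjusted p = 0.00235). SNQ2, a drug efflux pump gene, was higher in the mutant by 0.96 ± 0.15 (limma adjusted p = 0.00297) and AHP1, a peroxiredoxin gene, by 0.56 ± 0.13 (limma adjusted p = 0.0115).

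Regulators of these genes differed in both directions. YAP1 itself, named here after its values were seen, was at 0.34 ± 0.30 (SD, n = 3) for wild type and 0.67 ± 0.33 in the mutant, an uncalled difference of 0.33 ± 0.21 (SE, limma adjusted p = 0.222). Among 8 regulators 4 rose and 1 fell in wild type, and 6 rose and 1 fell in the mutant, and 2 were higher and 1 lower for the strain difference. Over all genes 29.7% rose and 36.3% fell in wild type, and 33.7% rose and 31.9% fell in the mutant. For the strain difference 24.8% of all genes were higher and 21.0% lower, and nothing is read from the counts of regulators. MSN4, a general stress activator gene, differed by -0.70 ± 0.12 (limma adjusted p = 0.0034). CAD1, the gene of a close relative of Yap1, differed by 0.51 ± 0.16 (limma adjusted p = 0.0367). Without wild-type array 1 or 2 or mutant array 1 or 3, only MSN4 was called, so 0 regulators were then higher.

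Genes with the pattern most like each member over the 6 arrays were found by the root mean square difference of the ratios, as a description. Closest to AAD4 were MET28 (0.088), LPP1 (0.099) and ARG4 (0.12). VCX1 (0.072), MRPL36 (0.076) and MRPL28 (0.081) were closest to AAD6. GYP7 (0.10), YDC1 (0.13) and RAD16 (0.13) were closest to AAD10, and COX20 (0.063), YAP1802 (0.096) and BAP2 (0.096) to AAD14. For AAD3 they were TFB2 (0.045), KIN4 (0.065) and AST1 (0.074). For AAD15 they were THI3 (0.048), SCEI (0.049) and HNT2 (0.049), no closer than the median of the deleted genes (0.047). Between members the smallest difference was 0.32, between AAD6 and AAD15, followed by 0.34 for AAD4 with AAD14 and 0.34 for AAD4 with AAD6. The largest was 1.80, between AAD3 and AAD10.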

How the data were processed

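The authors deposited 1 table of log2 ratios of the 2 channels for 45220 spots on 6 arrays, of which 10 spots have no value. The submitters' processing notes name limma without a version. How background was corrected and ratios were normalized is not stated in these sources, nor are log base and sign. Base 2 is limma's usual output. Its usual direction, Cy5 over Cy3, would be control over heated here, so the sign rests on the design text and on heat-induced genes. Dim spots could not be filtered, since scanner intensities were not analysed here, and precision is limited by the number of arrays.

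A symbol from the platform annotation was attached to 28532 spots, 1 each, and 16688 spots stay unnamed. RefSeq's R64 table held 4065 of the 4073 symbols and replaced 125 old ones. Spots were averaged per gene and array. limma 3.58.1 in R 4.3.3 fitted a mean per strain to all 6 arrays, with eBayes (4 residual and 3.37 prior degrees of freedom) and Benjamini-Hochberg adjustment over all genes. A call is an adjusted p under 0.05, and "rose", "fell", "higher" and "lower" after a count refer to calls. The fit was tested on simulated data with independent noise for each gene and no shift shared by an array. That test therefore does not bear on shifts of a whole array.

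Across genes, which are not independent, arrays correlated with r = 0.952 to 0.980 within wild type, 0.851 to 0.956 within the mutant and 0.504 to 0.853 between strains.

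Members, gene lists and tests were chosen with earlier results of these data known. Named are all members, RPD3, the 3 closest genes to each member, measured genes within 2 annotated steps, and the 2 highest and 2 lowest genes of a list in a contrast. Alternatives were the median over spots, quantile normalization, 2 centrings, robust eBayes, a filter on a spot SD above 0.5, the replicate number as a block, and leaving out each array.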

Additional observations from a re-analysis of the deposited data

Results flagged for a closer look

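The strains differed in the heat ratio of several named genes by the fit of the strain difference itself. Among the AAD members these were AAD4 (-0.92), AAD6 (-0.67) and AAD14 (-0.38), given as a description because the members were chosen with these ratios known. For AAD15 (-0.26) and the neighbour RDS1 (-0.25) all wild-type arrays were positive and all mutant arrays negative, and this difference was not called by the fit. The genes HIS3, LEU2, MET17 and URA3, absent or cut in BY4741, differed by -0.29 to -0.18.

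Of the other neighbours, THI12 (-1.36), THI5 (-1.25), AGP3 (-0.97), SNZ3 (-0.91), SNZ2 (-0.91), THI11 (-0.88), THI13 (-0.36), PEX6 (-0.35) and RPD3 (-0.29) were lower in the mutant. Both channels of the mutant arrays lack RPD3 RNA, so the RPD3 value is not a strain difference in heat response. It was called in 4 of 13 alternative settings.

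In the lists, PDC6 (-1.69), OYE3 (-1.68), ZWF1 (-1.48), ARO10 (-1.48), ARO9 (-1.02), the multidrug exporter gene ATR1 (-0.81), MSN4 (-0.70), ARA1 (-0.69) and the alcohol dehydrogenase gene ADH5 (-0.62) were lower in the mutant. HDA3 (1.24), SFA1 (1.16), SNQ2 (0.96), AHP1 (0.56), CAD1 (0.51), the drug resistance regulator gene PDR1 (0.50), SUM1 (0.48) and HDA2 (0.43) were higher.

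Leaving out 1 array or centring on the deleted genes removed the call for the members AAD6 and AAD14. The same held for RPD3, PEX6, SNZ2, SNZ3, THI13, ARO9 and ADH5. Leaving out 1 array removed the call for CAD1, PDR1, SUM1 and HDA2.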

How the results depend on the processing

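With 13 alternatives for the strain difference and 12 for each strain mean, 197 of the members' values kept direction and call, 18 lost the call, 2 gained it and 5 changed sign. For the other named genes 1128 values kept both, 94 lost the call, 19 gained it and 11 changed sign. Robust eBayes, the spot filter and the replicate block left the estimates as they were. So did, for a strain mean, leaving out an array of the other strain. In those settings only the call could change, so a kept direction says nothing there. After centring on the deleted genes, 1 member was called for the strain difference, the family's median difference was -0.079, AAD10 was at 0.15 and AAD3 at 0.071 for the difference, and AAD15 was at -0.0051 in wild type. AAD10's difference was also positive with quantile normalization (0.14), and it ranged from -0.21 to 0.059 when an array was left out, positive only without mutant array 3. Leaving out each array gave 1 to 3 members called for the strain difference, 2 to 4 in the mutant and 4 in wild type, and 1093 to 2218 genes called for the strain difference, lowest without mutant array 1. Without wild-type array 1, 1175 genes and 1 member were called, and without wild-type array 2, 1202 genes and 1 member. The cause was not tested. With genes of widely spread spots left out, 4 members were called for the strain difference. With the replicate block 2 members and 2093 genes were called for the strain difference. Deviations of same-numbered arrays correlated with r = -0.22, 0.21 and 0.42, and those of differently numbered arrays with r = -0.48 to 0.46. With 3 arrays a strain these values cannot decide whether equal numbers pair the samples, and the labels do not say. After centring on the deleted genes the differences of HXT15 (0.053) and HXT16 (0.11) turned positive, as did RPD3 in the mutant (0.022), and the wild-type values of PEX6 (-0.072), PGU1 (-0.010) and RDS1 (-0.10) turned negative, the last also with arrays centred on all spots (-0.013). With each array left out in turn, the GCY1 difference ran from -0.13 to 0.31, and wild-type values ran from -0.19 to 0.16 for SNZ3 and from -0.21 to 0.14 for SNZ2.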

Other observations

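Genes of silencing near chromosome ends and of other repressors were described by a list of their own. Of 11 listed genes 1 rose and 4 fell in wild type, 5 rose and 3 fell in the mutant, and 4 were called higher and 0 lower for the strain difference, leaving 7 uncalled, with a median of 0.21, against 0.02 over all genes. Over all genes 29.7% rose and 36.3% fell in wild type, and 33.7% rose and 31.9% fell in the mutant. For the strain difference 24.8% of all genes were called higher and 21.0% lower. The 4 calls became 1 without wild-type array 1, wild-type array 2 or mutant array 1, and 2 without mutant array 3. After centring on the deleted genes 8 were called, all higher. In the mutant 4 were called without mutant array 1, and in wild type 3 without wild-type array 1. HDA3, a subunit gene of the Hda1 histone deacetylase complex, was at -0.45 ± 0.25 (SD, n = 3) for wild type and 0.79 ± 0.072 in the mutant, a strain difference of 1.24 ± 0.14 (SE, limma adjusted p = 0.000953). HDA2, another subunit gene of that complex, differed by 0.43 ± 0.14 (limma adjusted p = 0.0412), and SUM1, a repressor gene of mid-sporulation genes, by 0.48 ± 0.13 (limma adjusted p = 0.0243). Neither of these differences was called without wild-type array 1 or 2 or mutant array 1 or 3.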
